A study of Homo sapiens with 4 samples.

Results

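RNA-seq of BE(2)C cells was used to describe the genes of collagens, laminins and integrins after knockdown of MYCN. The members were the genes whose symbols name a collagen chain, a laminin chain, an integrin alpha subunit or an integrin beta subunit. The rule found 82 of the 26364 listed genes, namely 44 collagen, 12 laminin, 18 integrin alpha and 8 integrin beta genes. It used no measured value, but the members were chosen with earlier results of these data known. BE(2)C is an established human neuroblastoma line with amplified MYCN. Control cells (Ctrl, 2 samples) received a non-targeting siRNA and knockdown cells (MYCN KD, 2 samples) received siRNA against MYCN. The labels give 80 nM siRNA with a lipid transfection reagent for 6 h in both groups, with RNA taken the next day. In the study's methods medium was added after the 6 h, and the final concentration given is lower. Both groups carry the amplified MYCN and come from 1 cell line, and the methods name 1 siRNA product for each group. Nothing in the labels says that the samples were separate cultures. The paper calls its replicates biological without saying how they were made. The p-values therefore measure the spread between these samples only, which may be technical.

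Collagens are secreted proteins wound from several alpha chains that give the extracellular matrix its strength. Laminins are secreted heterotrimers of an alpha, a beta and a gamma chain, and together with collagen IV they form the sheets of basement membranes. Integrins are heterodimers of an alpha and a beta subunit that sit in the cell membrane, bind matrix proteins outside the cell and connect them to the actin cytoskeleton. They take part in the migration of neural crest cells, the origin of neuroblastoma, and in the outgrowth of neurites.

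Expression is given in RPKM, reads per length of gene and depth of the library, as normalized by the authors. MYCN itself had 1068 and 1073 RPKM in Ctrl against 720 and 718 RPKM in MYCN KD, so the knockdown was partial. On the log2 scale the difference was -0.57, with a standard error of 0.029 and an adjusted p of 0.00361 in limma. Of 10 genes of the adrenergic neuroblastoma state, 10 were above the filter described below, 6 rose and 2 fell, against 25.3% and 22.8% of all tested genes. Their summed level was 3250 to 3510 RPKM in Ctrl against 4630 to 5000 RPKM in MYCN KD. The count of falls was 0 with no filter, rescaled to the same total, under quantile normalization and without any 1 sample. Endothelial and epithelial markers were at low levels, none above the filter. The 6 endothelial markers summed to 0.430 to 0.508 RPKM in Ctrl against 0.605 to 0.733 RPKM in MYCN KD, and the 6 epithelial markers to 1.06 to 1.14 RPKM against 1.99 to 2.04 RPKM. Among 8 fibroblast and mesenchymal markers, POSTN, PRRX1 and TWIST2 were listed at 0, 3 of the 4 tested rose, and the summed level was 26.1 to 27.9 RPKM in Ctrl against 32.3 to 34.6 RPKM in MYCN KD. Among 6 Schwann cell markers PMP2 was listed at 0, both tested genes rose, and the summed level was 5.59 to 5.92 RPKM in Ctrl against 9.90 to 10.5 RPKM in MYCN KD. Among 8 blood cell markers HBB was listed at 0, 1 of the 2 tested rose, and the summed level was 5.06 to 6.11 RPKM in Ctrl against 11 to 13.3 RPKM in MYCN KD, most of it CD68, a lysosomal protein of macrophages. All 5 of these sums were higher in MYCN KD without overlap, the direction of many members, and their part in the results was not tested.

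Genes with a mean of at least 1 RPKM over the samples were tested on log2(RPKM + 1) with limma and Benjamini-Hochberg adjustment over the 11411 genes of that level. A log2 fold change is MYCN KD over Ctrl on that scale, which understates the change of low genes. Of the 82 members, 25 were tested (11 collagens, 5 laminins, 6 integrin alpha and 3 integrin beta subunits), 49 were above 0 but under the filter, and 8 were listed at 0 in each sample. Of the tested members COL1A1, COL6A3 and ITGB8 passed only through MYCN KD, their Ctrl means being under 1 RPKM, so counts and medians over the tested members are given as descriptions. The lowest tested member had a mean of 1.25 RPKM (COL1A1 and ITGB8), and the highest untested member had 0.775 RPKM (COL4A1).

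Of the 25 tested members, 17 rose in MYCN KD (adjusted p under 0.05), against 25.3% of all tested genes. None of the 25 fell in this limma test: 0 were lower at the adjusted threshold, against 22.8% of all tested genes, and 0 at an unadjusted p under 0.05. A test of reads with limma voom, which also covers lower members, called 1 of 46 members lower, COL19A1, against 20.0% of all its genes. Reads of a gene, here and below, are whole counts recovered from the RPKM values. The paper calculated those values from counts normalized with RUVSeq, so they are not raw reads. The background depends on the scale of the samples, since median-ratio rescaling called 2413 genes higher and 3257 lower where the values as deposited gave 2890 and 2599. In 20 members both MYCN KD values lay above both Ctrl values, as in 40.4% of tested genes, and in 3 members (COL18A1, ITGAE and LAMA4) both lay below, as in 35.8%. The median log2 fold change of the 25 tested members was 0.63, and that of all tested genes was 0.03. The tested members are long, with a median gene length of 5846 bases, and the 1833 tested genes of at least that length had a median log2 fold change of 0.11. In bulk RNA, fewer cells of a type and less RNA per cell cannot be told apart.

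**Figure D1:**
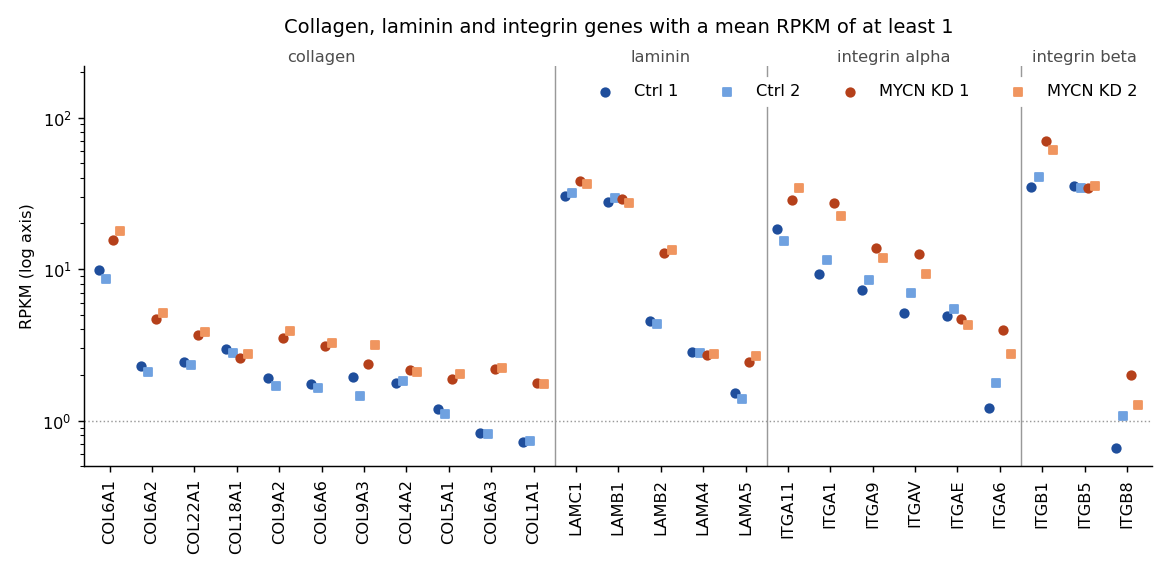
RPKM (log axis) of the 25 tested members in each of the 4 samples, by family and in falling order of mean level. Blue points are Ctrl, orange points are MYCN KD, circles are replicate 1 and squares replicate 2; the dotted line is 1 RPKM. LAMB2 and ITGA1 show wide gaps between the groups, while ITGB5 and LAMB1 overlap.

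The replicates shared a pattern. In 14 tested members the higher value of each group was in Ctrl 1 and in MYCN KD 2, and the other 11 had it in Ctrl 2 and in MYCN KD 1. The same replicate number was higher in both groups for 0 members. The first set holds 9 of the 11 tested collagens, and the second holds 5 of the 6 tested integrin alpha subunits. With 2 samples against 2, an exact permutation test of a single gene has a smallest two-sided p of 0.3333, so the tests given here rest on the spread that limma shares across genes.

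The start regions of a few members are shown so that members of a family with unlike changes, such as LAMB2 and LAMB1, can be read side by side. They were taken from RefSeq on GRCh38.p14, where 58 of the 82 members and 20 of the 25 tested members had a window of 250 bases before to 50 bases after a start. Letters that belong to annotated transcripts were left off, capitals mark CACGTG, the E-box that MYC proteins with MAX can bind, and GGGCGG, the GC box of SP1-type factors, each on either strand.
LAMB2 (chr3:49133119-49133300, minus strand): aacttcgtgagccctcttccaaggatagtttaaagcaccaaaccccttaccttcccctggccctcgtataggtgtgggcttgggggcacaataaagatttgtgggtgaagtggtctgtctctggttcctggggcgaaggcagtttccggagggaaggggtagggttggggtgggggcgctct
LAMB1 (chr7:108003214-108003411, minus strand): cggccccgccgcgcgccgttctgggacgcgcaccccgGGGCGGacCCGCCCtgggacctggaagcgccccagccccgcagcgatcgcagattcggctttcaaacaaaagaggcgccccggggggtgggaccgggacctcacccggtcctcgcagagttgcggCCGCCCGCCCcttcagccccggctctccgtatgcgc
COL6A2 (chr21:46097862-46098111, plus strand): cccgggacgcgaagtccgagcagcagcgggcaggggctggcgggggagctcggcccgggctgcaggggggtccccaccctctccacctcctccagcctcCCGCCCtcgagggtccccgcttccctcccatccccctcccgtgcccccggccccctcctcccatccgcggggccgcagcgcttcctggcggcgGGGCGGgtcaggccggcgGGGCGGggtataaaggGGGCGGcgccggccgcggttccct
ITGB1 (chr10:32958326-32958436, minus strand): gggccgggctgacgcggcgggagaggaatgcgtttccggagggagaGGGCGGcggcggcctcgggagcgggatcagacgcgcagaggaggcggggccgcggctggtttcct
ITGA6 (chr2:172427086-172427335, plus strand): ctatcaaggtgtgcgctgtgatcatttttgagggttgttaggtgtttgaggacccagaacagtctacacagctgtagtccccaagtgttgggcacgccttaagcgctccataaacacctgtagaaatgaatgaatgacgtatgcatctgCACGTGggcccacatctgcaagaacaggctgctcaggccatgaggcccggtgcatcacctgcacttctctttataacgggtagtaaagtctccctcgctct
COL4A2 (chr13:110307158-110307257, plus strand): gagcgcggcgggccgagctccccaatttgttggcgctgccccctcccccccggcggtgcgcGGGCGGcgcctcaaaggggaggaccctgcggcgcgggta

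The E-box stood in the window of 1 of the 20 tested members, ITGA6, at position -101 of the start shown (the base before the start is -1), and in 1 of the 58 members in all. Over all genes of the table, 8.77% had it in a window. The GC box stood in the windows of 14 of the 20 tested members (70.0%) and of 48.3% of all genes. It was found for 10 of the 13 members that rose and for 4 of the 7 that did not pass the threshold. The LAMB2 stretch shown holds 0 GC boxes (its whole window holds 1) and the LAMB1 stretch holds 4, of which a pair overlaps. COL4A1 and COL4A2 are transcribed away from each other from starts that lie 127 bases apart on chromosome 13, and the COL4A2 stretch shown lies between them. These are matches of letters in short windows, and no binding was measured here.

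Collagen VI had the most members above the filter of any collagen type. It forms beaded microfilaments around cells and is built from the chains of COL6A1 and COL6A2 with a chain of COL6A3, COL6A5 or COL6A6. COL6A1, on chromosome 21 of GRCh37 from 47401684 to 47424964, was the most abundant collagen, with 9.91 and 8.67 RPKM in Ctrl against 15.6 and 17.8 RPKM in MYCN KD. Both MYCN KD samples lay above both Ctrl samples, a 1.80-fold rise (log2 fold change 0.78, standard error 0.10, adjusted p = 0.0114 from limma). COL6A2, which spans 47518026 to 47552762 on the same chromosome, had 2.29 and 2.08 RPKM in Ctrl against 4.71 and 5.16 RPKM in MYCN KD. It rose 2.26-fold (log2 fold change 0.90, standard error 0.0661, adjusted p = 0.00496), again without overlap.

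The partner chains rose as well. COL6A3 had 0.827 and 0.816 RPKM in Ctrl against 2.19 and 2.22 RPKM in MYCN KD, with replicates that differed little within a group. Its rise was 2.68-fold in RPKM and 0.81 on the log2 scale (standard error 0.0354, adjusted p = 0.00359). COL6A6 had 1.73 and 1.63 RPKM in Ctrl against 3.09 and 3.27 RPKM in MYCN KD, which is 0.64 on the log2 scale (standard error 0.0481, adjusted p = 0.00509). COL6A5 stayed under 1 RPKM and is given with the low members. The summed level of the COL6A3, COL6A5 and COL6A6 chains was 2.73 and 2.63 RPKM in Ctrl against 5.67 and 5.84 RPKM in MYCN KD. The 5 collagen VI genes made up 48.7% and 47.6% of the summed RPKM of all collagens in Ctrl against 55.1% and 56.0% in MYCN KD. Within a sample, the ratio of COL6A1 to COL6A2 was 4.33 and 4.16 in Ctrl against 3.32 and 3.45 in MYCN KD, and that of COL6A3 to COL6A6 was 0.477 and 0.50 in Ctrl against 0.708 and 0.677 in MYCN KD. Such ratios do not depend on the scale of a sample, and neither overlapped between groups.

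Fibrillar collagens form the cross-striated fibrils of connective tissue. COL1A1, the alpha 1 chain of type I collagen, had 0.726 and 0.739 RPKM in Ctrl against 1.78 and 1.75 RPKM in MYCN KD. It rose 2.41-fold (log2 fold change 0.67, standard error 0.0353, adjusted p = 0.00365), with no overlap between groups. Its partner chain in type I collagen, COL1A2, had 3 or 4 reads in each sample, so that a difference was not detectable at this depth. COL5A1, a chain of the type V collagen that starts fibrils, had 1.19 and 1.11 RPKM in Ctrl against 1.89 and 2.02 RPKM in MYCN KD. It rose by 0.46 on the log2 scale (standard error 0.0474, adjusted p = 0.00782). Of the other 9 fibrillar collagens, COL3A1 and COL5A2 had enough reads for a test of reads and are described below.

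FACIT collagens lie on the surface of other fibrils. COL9A2, a chain of the cartilage-type collagen IX, had 1.91 and 1.70 RPKM in Ctrl against 3.51 and 3.93 RPKM in MYCN KD. It rose 2.06-fold (log2 fold change 0.75, standard error 0.0733, adjusted p = 0.00723). COL9A3, which encodes another chain of collagen IX, had 1.93 and 1.45 RPKM in Ctrl against 2.38 and 3.13 RPKM in MYCN KD. Its groups did not overlap, but the spread within them was wider and it did not pass the threshold (log2 fold change 0.48, standard error 0.152, adjusted p = 0.0751). Without each sample in turn its log2 fold change was 0.34 to 0.63. COL9A1, the remaining chain of collagen IX, was listed at 0 in each sample. COL22A1, a FACIT collagen of tissue junctions, had 2.44 and 2.31 RPKM in Ctrl against 3.66 and 3.86 RPKM in MYCN KD. It rose by 0.50 on the log2 scale (standard error 0.0485, adjusted p = 0.00722).

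Of the basement membrane collagen IV genes, COL4A2 alone was tested. It had 1.77 and 1.83 RPKM in Ctrl against 2.15 and 2.08 RPKM in MYCN KD, a 1.17-fold difference that was the smallest of the 17 (log2 fold change 0.15, standard error 0.0397, adjusted p = 0.0497). It passed in 2 of 8 alternatives that kept all samples, with an adjusted p of 0.0517 at a pseudocount of 0.1, and it missed the threshold without each sample in turn (0.343 to 0.462). COL4A1, its partner chain, had 0.621 and 0.755 RPKM in Ctrl against 0.942 and 0.780 RPKM in MYCN KD. The ratio of COL4A2 to COL4A1 was 2.85 and 2.43 in Ctrl against 2.28 and 2.66 in MYCN KD, so the groups overlapped. COL18A1, a basement membrane multiplexin whose end is released as endostatin, had 2.98 and 2.81 RPKM in Ctrl against 2.58 and 2.74 RPKM in MYCN KD. It did not pass the threshold (log2 fold change -0.09, standard error 0.050, adjusted p = 0.223), and 1563 bases of its exons overlap SLC19A1 on the other strand, whose reads cannot be told apart if strand was not used in counting.

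Of the laminin beta chains, LAMB2 and LAMB1 were tested, and their start regions are printed above. LAMB2, the beta 2 chain found in synaptic, muscle and kidney basement membranes, lies on chromosome 3 from 49158547 to 49170551. It had 4.57 and 4.36 RPKM in Ctrl against 12.9 and 13.4 RPKM in MYCN KD. The rise was 2.94-fold and had the highest log2 fold change of the tested members at 1.37 (standard error 0.0488, adjusted p = 0.00359). LAMB1, the beta 1 chain of most embryonic laminins, had 27.9 and 29.3 RPKM in Ctrl against 28.8 and 27.4 RPKM in MYCN KD. These values overlapped (log2 fold change -0.02, standard error 0.0501, adjusted p = 0.712). The ratio of LAMB2 to LAMB1 was 0.164 and 0.149 in Ctrl against 0.446 and 0.490 in MYCN KD, so LAMB1 stayed the more abundant beta chain per length in each sample.

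Of the alpha chains, LAMA5 and LAMA4 were tested. LAMA5, the alpha chain of most adult basement membranes, had 1.53 and 1.40 RPKM in Ctrl against 2.43 and 2.65 RPKM in MYCN KD. It rose 1.73-fold (log2 fold change 0.52, standard error 0.0585, adjusted p = 0.00900). LAMA4, a chain of vessel, muscle and nerve laminins, had 2.84 and 2.81 RPKM in Ctrl against 2.72 and 2.76 RPKM in MYCN KD. Its values lay slightly lower in MYCN KD without passing the threshold (log2 fold change -0.03, standard error 0.0376, adjusted p = 0.510). The ratio of LAMA5 to LAMA4 was 0.539 and 0.496 in Ctrl against 0.891 and 0.963 in MYCN KD. LAMC1, the gamma chain shared by most laminins and the most abundant laminin gene, had 30.4 and 31.6 RPKM in Ctrl against 37.9 and 36.6 RPKM in MYCN KD. It rose 1.20-fold (log2 fold change 0.26, standard error 0.0431, adjusted p = 0.0196), but missed the threshold without each sample in turn (adjusted p 0.0512 to 0.145). The directions of LAMB1 and LAMA4 turned when samples were rescaled to the same total, to 0.03 and 0.01.

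**Figure D2:**
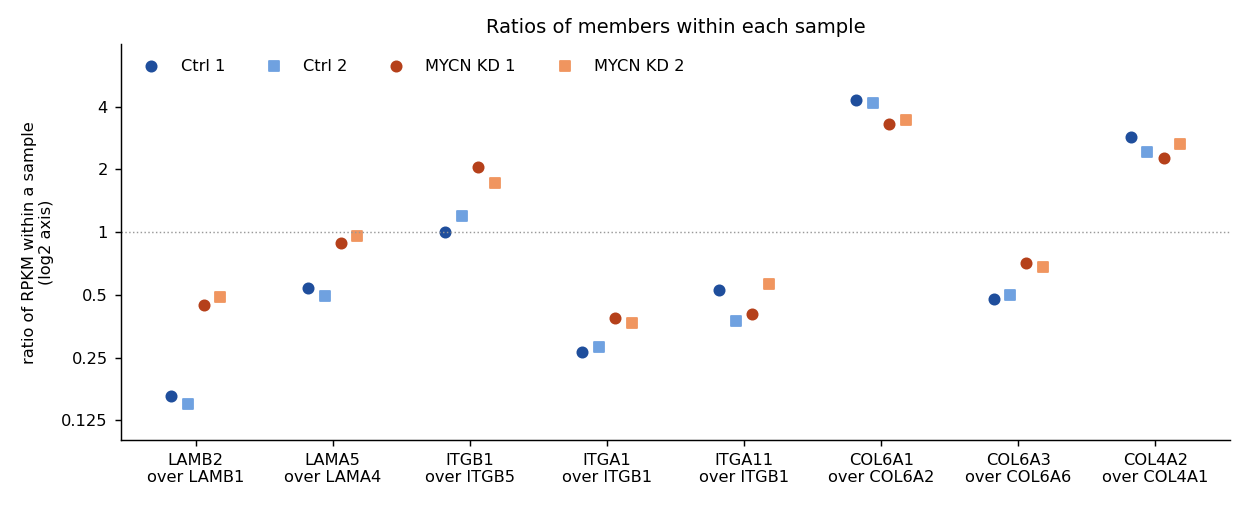
Ratios of RPKM between members within each sample (log2 axis), with Ctrl in blue and MYCN KD in orange. LAMB2 over LAMB1 moves from 0.149 to 0.164 in Ctrl to 0.446 to 0.490 in MYCN KD, while ITGA11 over ITGB1 and COL4A2 over COL4A1 overlap between groups.

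Among the tested alpha subunits, the 2 that bind collagens had the highest levels. ITGA1, the alpha 1 subunit that binds collagen IV, lies on chromosome 5 from 52083750 to 52255039. It had 9.34 and 11.5 RPKM in Ctrl against 27.3 and 22.3 RPKM in MYCN KD, with no overlap. It rose 2.38-fold (log2 fold change 1.18, standard error 0.151, adjusted p = 0.0114). PELO lies within the same gene on the same strand and shares 499 exonic bases with it, so some reads could belong to either. ITGA11, the alpha 11 subunit that binds fibrillar collagens, was the most abundant alpha subunit, with 18.4 and 15.3 RPKM in Ctrl against 28.6 and 34.3 RPKM in MYCN KD. It rose 1.87-fold (log2 fold change 0.86, standard error 0.139, adjusted p = 0.0179). Of the other collagen-binding subunits, ITGA2 had 11 to 21 reads in a sample and ITGA10 had 1 to 5.

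Other alpha subunits followed with a wider spread. ITGA6, a laminin receptor subunit, had 1.21 and 1.76 RPKM in Ctrl against 3.94 and 2.74 RPKM in MYCN KD. The rise was 2.25-fold (log2 fold change 0.80, standard error 0.198, adjusted p = 0.0444), and it missed the threshold without the filter on low values (adjusted p = 0.0719). ITGA9, whose ligands include tenascin-C, had 7.25 and 8.48 RPKM in Ctrl against 13.7 and 11.8 RPKM in MYCN KD, a rise of 0.63 on the log2 scale (standard error 0.114, adjusted p = 0.0223). ITGA9-AS1 overlaps 763 of its exonic bases on the other strand. ITGAV, the alpha V subunit that binds the RGD sequence of vitronectin and fibronectin, had 5.11 and 6.93 RPKM in Ctrl against 12.5 and 9.35 RPKM in MYCN KD. Its groups did not overlap, yet the adjusted p was 0.0541 (log2 fold change 0.77, standard error 0.208). Settings under which it passed included quantile normalization (0.0338), median-ratio rescaling (0.0442) and a filter of 5 RPKM (0.0496). Without each sample in turn its log2 fold change was 0.57 to 0.96. ITGAE, a leukocyte subunit that pairs with ITGB7, had 4.94 and 5.42 RPKM in Ctrl against 4.70 and 4.30 RPKM in MYCN KD (log2 fold change -0.17, standard error 0.0693, adjusted p = 0.129). It passed as lower under quantile normalization (adjusted p = 0.0186) and median-ratio rescaling (0.0317), and ITGB7 had 3 reads in each sample.

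Of the beta subunits, ITGB1, the common partner of the collagen-binding and laminin-binding alpha subunits, had 35.0 and 40.6 RPKM in Ctrl against 70.5 and 61.0 RPKM in MYCN KD. It rose 1.74-fold (log2 fold change 0.78, standard error 0.116, adjusted p = 0.0151). ITGB5, a partner of ITGAV that binds vitronectin, had 35.1 and 34.2 RPKM in Ctrl against 34.2 and 35.2 RPKM in MYCN KD. Its values overlapped (log2 fold change 0.001, standard error 0.0379, adjusted p = 0.989), and median-ratio rescaling turned the difference to -0.08. In Ctrl both beta subunits were thus at a similar level per length, with a ratio of ITGB1 to ITGB5 of 0.996 and 1.19, and in MYCN KD the ratio was 2.06 and 1.73. ITGB8, another partner of ITGAV, had 0.664 and 1.06 RPKM in Ctrl against 2.00 and 1.26 RPKM in MYCN KD and did not pass the threshold (log2 fold change 0.49, standard error 0.197, adjusted p = 0.123). Without a sample, it was tested in 3 of the 4 fits, where its log2 fold change was 0.33 to 0.69.

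The alpha subunits known to pair with ITGB1 summed to 42.1 and 44.7 RPKM in Ctrl against 87.6 and 82.0 RPKM in MYCN KD. Divided by ITGB1 of the same sample, they gave 1.20 and 1.10 in Ctrl against 1.24 and 1.35 in MYCN KD. ITGA1 and ITGA11 together made up 65.9% and 59.8% of that sum in Ctrl against 63.8% and 69.0% in MYCN KD, values that overlapped. By family, the summed level of all members was 1.84 times as high in MYCN KD for integrin alpha, 1.68 times for collagens, 1.39 times for integrin beta and 1.23 times for laminins.

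**Figure D3:**
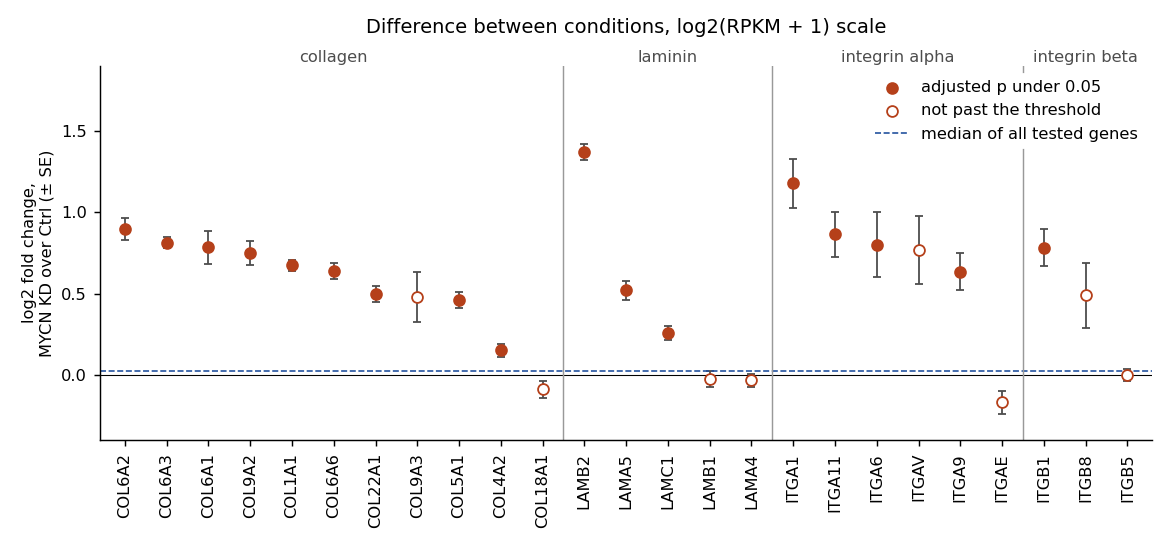
Log2 fold change (MYCN KD over Ctrl, log2(RPKM + 1) scale) of the 25 tested members by family, with bars for the standard error from limma. Filled points passed an adjusted p of 0.05, open points did not, and the dashed line is the median of all tested genes, 0.03. LAMB2 stands highest at 1.37, and COL18A1, LAMB1, LAMA4 and ITGAE, none past the threshold, lie below 0.

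Of the 57 members under the filter, the 5 with the highest mean level were COL4A1, ITGA3, COL23A1, COL3A1 and COL5A2, from 0.775 down to 0.374 RPKM. The whole counts behind each value, as left by the authors' RUVSeq step, could be recovered from the RPKM values. They are called reads here, and they allowed a test of reads with limma voom for genes with a mean of at least 10 reads. That test, chosen after the values were seen, covered 14031 genes and called 26.1% of them higher and 20.0% lower. It covered 46 members, 21 of them under 1 RPKM, and called 24 of the 46 higher and 1 lower. The 17 members called higher above all passed it, while ITGAV, COL9A3 and ITGB8 did not. Replicates of several low members lay closer together than counting error alone would usually leave them, while those of others, such as LAMB3, did not. The standard errors and adjusted p-values of low members in this test may therefore be too small.

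In the test of reads 26.1% of all genes were higher and 20.0% lower, so counts of low members are given as descriptions. Of the 21 low members, 7 rose. The subunits of laminin receptors ITGA3 and ITGA7 were among them. ITGA3 had 54 and 46 reads in Ctrl against 108 and 126 reads in MYCN KD (log2 fold change 1.36, standard error 0.0948, adjusted p = 0.00529 from limma voom). ITGA7 had 40 and 38 reads in Ctrl against 52 and 55 in MYCN KD (log2 fold change 0.59, adjusted p = 0.0104). With ITGA6, each of the 3 laminin-binding alpha subunits was therefore called higher in the test of reads. ITGA5, the fibronectin receptor subunit, had 18 and 17 reads in Ctrl against 33 and 35 in MYCN KD (log2 fold change 1.08, adjusted p = 0.00570). ITGB3, the vitronectin receptor subunit, had 32 and 36 reads in Ctrl against 55 and 48 in MYCN KD (log2 fold change 0.73, adjusted p = 0.0373). An unnamed gene model on the same strand shares 2266 exonic bases with ITGB3.

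The matrix genes among these 7 were COL6A5, COL5A2 and LAMB3. COL6A5 had 53 and 55 reads in Ctrl against 105 and 100 in MYCN KD (log2 fold change 1.06, adjusted p = 0.00799), so that each of the 5 collagen VI genes was called higher by this test. COL5A2, the partner chain of COL5A1, had 64 and 71 reads in Ctrl against 99 and 89 in MYCN KD (log2 fold change 0.61, adjusted p = 0.0404). LAMB3, a chain of epithelial laminin, had 15 and 8 reads in Ctrl against 28 and 49 in MYCN KD (log2 fold change 1.85, adjusted p = 0.0375). The 1 member called lower was COL19A1, a FACIT collagen, with 17 and 15 reads in Ctrl and 7 in each MYCN KD sample (log2 fold change -1.0, adjusted p = 0.00938). Its standard error of 0.11 is small for so few reads, so this call may be too confident.

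The other 13 low members did not pass the test of reads. LAMC3, the gamma 3 chain, had 31 and 17 reads in Ctrl against 5 and 9 in MYCN KD (log2 fold change -1.56, adjusted p = 0.0547). COL7A1, which forms the anchoring fibrils of skin, had 12 and 17 reads in Ctrl against 34 and 24 in MYCN KD (log2 fold change 1.12, adjusted p = 0.0659). Both lay without overlap between groups in opposite directions. COL3A1, the chain of type III collagen, had 80 to 87 reads in each sample (log2 fold change 0.12, adjusted p = 0.448), and ITGB4, the hemidesmosome partner of ITGA6, had 48 to 58 (log2 fold change 0.02, adjusted p = 0.852). COL23A1, a transmembrane collagen, had 60 and 40 reads in Ctrl against 36 and 54 in MYCN KD, and its groups overlapped. Others that did not pass were COL4A1, COL13A1, COL16A1, COL21A1, ITGA2, ITGA2B and LAMA3.

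The remaining 36 members were under 10 reads on average. Of these, 8 were at 0 in each sample: COL4A5, COL9A1, COL11A1, COL15A1, COL17A1, COL25A1, ITGAM and ITGAX. Counts this low were not read as differences. That includes COL28A1, which had 4 and 3 reads in Ctrl against 0 in both MYCN KD samples and was called lower with no filter. COL11A2 had 1 read in 1 sample and lies in a stretch of the short arm of chromosome 6 where 96.2% of 159 protein-coding genes were under 1 RPKM in each sample, against 45.2% of 748 elsewhere on the chromosome. Its level is therefore not read as its expression.

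**Figure D4:**
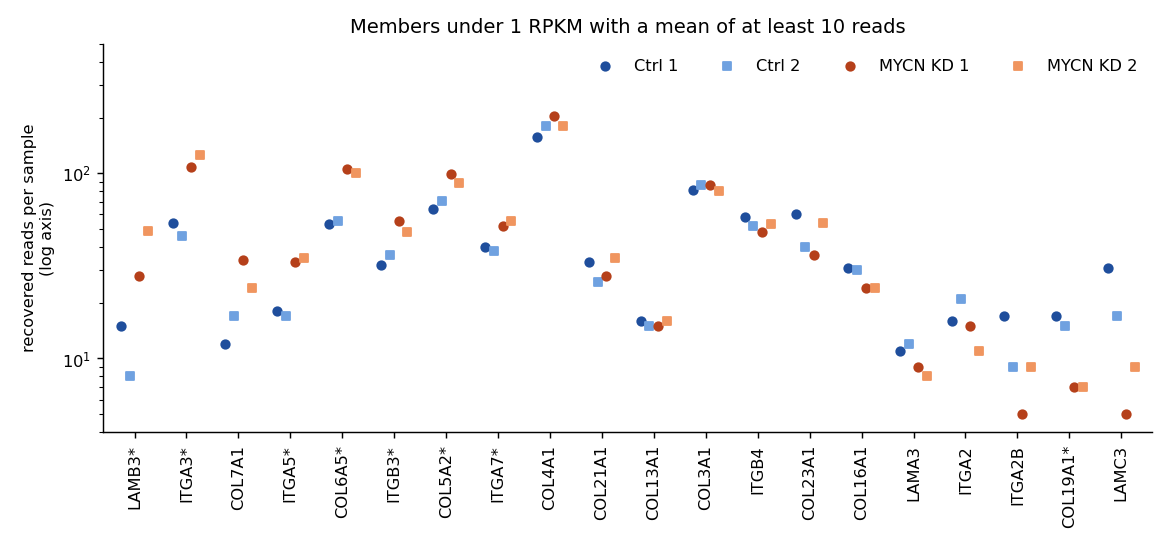
Recovered reads per sample (log axis) of 20 of the 21 members under 1 RPKM with a mean of at least 10 reads, in falling order of log2 fold change from limma voom, with Ctrl in blue and MYCN KD in orange. An asterisk marks the 8 that passed an adjusted p of 0.05: 7 higher and, near the right end, COL19A1 lower.

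The genes that act on collagen chains were written as a separate list. Of 24 genes of collagen synthesis and crosslinking, 17 were tested, 5 rose, 2 fell and 10 did not pass the threshold, with a median log2 fold change of 0.04. Over all tested genes 25.3% rose and 22.8% fell, so the share of rises in this list was near that of all genes in this fit. With median-ratio rescaling it had 3 rises (2413 of all 11409 genes). It had 7 when rescaled to the same total (3282 of 11414) and 7 under quantile normalization (2891 of 11412). P4HA2, a subunit of collagen prolyl 4-hydroxylase, rose from 7.85 and 7.80 RPKM in Ctrl to 14.8 RPKM in both MYCN KD samples (log2 fold change 0.84, adjusted p = 0.00359), and LOXL3, a lysyl oxidase that crosslinks collagen, rose by 0.52 (adjusted p = 0.00486). PCOLCE2, which enhances the trimming of procollagen, had 27.1 and 28.5 RPKM in Ctrl against 12.8 and 12.3 RPKM in MYCN KD (log2 fold change -1.09, adjusted p = 0.00359). CRTAP, a part of the prolyl 3-hydroxylation complex, differed by -0.46 on the log2 scale (adjusted p = 0.00840).

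Among 25 other basement membrane and matrix proteins, 8 were tested, of which 6 rose (25.3% over all tested genes), 0 fell and 2 did not pass, with a median log2 fold change of 0.48. AGRN, called higher, passed the filter only through MYCN KD, so these counts and the median are given as descriptions. With limma voom, which also covers genes of the list under the filter, 10 were higher and 3 lower. Over all genes of that test 26.1% were higher and 20.0% lower. How many genes of the list it covered is not given here, so these counts cannot be compared with those shares. EFEMP2, a fibulin of elastic fibres, rose from 5.82 and 4.87 RPKM in Ctrl to 12.1 and 14.4 RPKM in MYCN KD (log2 fold change 1.16, adjusted p = 0.00842). BCAN, the brain proteoglycan brevican, rose by 0.65 (adjusted p = 0.00401). Fibronectin (FN1) was at most 0.593 RPKM and tenascin-C (TNC) at most 0.0170 RPKM, and these encode ligands of ITGA5 and ITGA9.

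Proteins that link integrins to actin formed the next list. Of 29 genes of the integrin adhesion complex, 25 were tested, 15 rose, 2 fell and 8 did not pass the threshold, with a median log2 fold change of 0.40, against 25.3% and 22.8% of all tested genes that rose and fell. FERMT3 and PTK2B, both called higher, passed the filter only through MYCN KD, so these counts and the median are given as descriptions. ILK, the pseudokinase that binds the tail of the beta 1 subunit, rose from 43.4 and 39.9 RPKM in Ctrl to 82.8 and 89.8 RPKM in MYCN KD (log2 fold change 1.03, adjusted p = 0.00450). ZYX, which encodes zyxin, rose from 40.7 and 36.5 RPKM to 75.3 and 83.5 RPKM (log2 fold change 1.02, adjusted p = 0.00594). PARVB, a parvin that binds ILK, fell from 17.4 and 15.9 RPKM to 10.3 and 11.2 RPKM (log2 fold change -0.58, adjusted p = 0.0113), and the talin TLN2 differed by -0.18 (adjusted p = 0.0470). The list had 1 fall in place of 2 when rescaled to the same total, under quantile normalization, with a filter of 5 RPKM, and without Ctrl 1 or without MYCN KD 1.

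Receptors of matrix proteins other than integrins were listed as well. Of 13 listed genes 10 were tested, 4 rose, 2 fell and 4 did not pass, with a median log2 fold change of 0.07. Over all tested genes 25.3% rose and 22.8% fell, so these counts are a description and not a result about the list. LRP1, called higher, passed the filter only through MYCN KD. SDC3, the neuronal syndecan, rose from 3.15 and 2.94 RPKM in Ctrl to 6.20 and 6.63 RPKM in MYCN KD (log2 fold change 0.88, adjusted p = 0.00440), and the tetraspanin CD151, which binds laminin-binding integrins, rose by 0.49 (adjusted p = 0.0173). SDC1, a syndecan of epithelial and plasma cells, fell from 19.3 and 17 RPKM to 6.70 and 7.59 RPKM (log2 fold change -1.23, adjusted p = 0.00524). MCAM, which binds laminins with the LAMA4 chain, differed by -0.19 (adjusted p = 0.0360). The list had 1 fall in place of 2 with no filter, with a filter of 5 RPKM, rescaled to the same total and without any 1 sample.

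**Figure D5:**
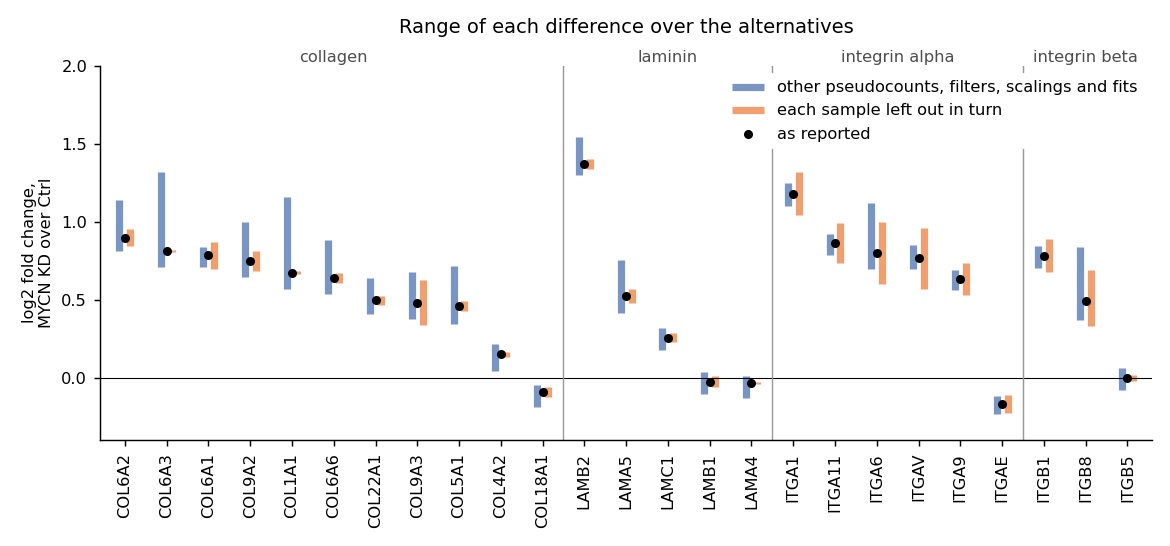
Range of the log2 fold change of each tested member (MYCN KD over Ctrl) over other pseudocounts, filters, scalings and fits (blue bars) and with each sample left out in turn (orange bars), with the reported value as a black point. The bars of the 17 members that rose stay above 0, while those of LAMB1 and ITGB5 and the blue bar of LAMA4 cross it.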

How the data were processed

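The authors mapped RNA-seq reads to hg19 with HISAT2 2.1.0, obtained counts of RefSeq genes from featureCounts, and used DESeq2 and then RUVSeq to model the counts and take out unwanted variation. They deposited the resulting RPKM values per gene, 1 file for each of 4 samples. The RUVSeq settings and the strandedness of counting are not given in the sources used here. Since the values had been adjusted before deposit, their spread may differ from that of raw reads.

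The log2(RPKM + 1) values were tested in limma (version 3.58.1, R 4.3.3, with trend, no block and threshold 0.05) for genes with a mean of at least 1 RPKM, after a check on simulated data. The simulated samples were independent and lacked the replicate pattern described above, so the check does not bear on the p-values of these data. For genes above 0, RPKM steps gave whole counts, called reads here, for 99.95% of 19908 genes (tolerance 2e-05) and totals of 29055819 to 34142988 per sample. In tested members 115 to 8921 of these counts lay behind a value. Overlaps came from GENCODE release 44 on GRCh37, and only some are given above. Other tested members also had them on the other strand, such as LAMA5 with ADRM1 (244 exonic bases) and ITGAE with HASPIN (427). Python 3.11.15 was used.

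The members and lists were chosen with earlier results of these data known. Members that passed the 1 RPKM filter are all named, and 1 low member is not reported here. The 5 highest untested members and, per list, up to 2 rises and 2 falls are named by rule. FN1, TNC and other untested members were named after their values were seen. Alternatives were other pseudocounts (0.1 and 0.5), filters, scalings and fits.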

Additional observations from a re-analysis of the deposited data

How the results depend on the processing

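All 17 members that rose kept their direction under every alternative run, and 14 of them stayed past the threshold in each that kept all samples. Runs without a sample leave 1 sample in a group and take its spread from the other group, so passing in them is not counted as support. Members higher came to 8 of 10 with a filter of 5 RPKM (1868 of all 7859 genes). Members lower came to 2 of 74 with no filter, COL19A1 and COL28A1 (2594 of all 19908 genes). COL28A1 had 4 and 3 reads in Ctrl, which is not read as a difference. ITGAE was the 1 member lower under quantile normalization (3000 of all 11412 genes) and under median-ratio rescaling (3257 of 11409). COL19A1 was the 1 member lower with limma voom on the recovered reads (20.0% of all genes). The median log2 fold change of the tested members was 0.80 and 0.66 with pseudocounts of 0.1 and 0.5, 0.0126 without a filter (74 members), 0.77 with a filter of 5 RPKM, 0.68 rescaled to the same total, 0.53 with quantile normalization, 0.56 with median-ratio rescaling, 0.68 with limma voom, and 0.58 to 0.68 without each sample. Directions turned for members near 0: LAMA4 (0.0121) and LAMB1 (0.0346) rescaled to the same total, LAMB1 (0.00229) with quantile normalization, ITGB5 (-0.076) with median-ratio rescaling, and without each sample LAMB1 (-0.0604 to 0.0117) and ITGB5 (-0.018 to 0.0194). Except where fewer genes or samples entered, the cause was not tested.

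Same-numbered samples deviated in opposite directions (correlation -0.98 over tested genes), and the numbers were not used to pair the samples. Whether the numbers are crossed or the authors' RUVSeq step left this pattern was not tested, and the within-group spread behind all p-values carries it. With the replicate block 18 members were higher and 0 lower, and 2077 of all genes were higher and 1851 lower. The block called ITGAV (adjusted p = 8.07e-05), COL9A3 (0.0128) and ITGB8 (0.00646) and no longer called LAMC1 (0.171) and COL4A2 (0.502). It left 1 fall each among the adhesion complex and receptor lists and 0 among the adrenergic genes. A crossed replicate block, chosen after seeing the data, called 20 members higher and 4 lower, and 5910 of all genes higher and 5262 lower. At this depth no difference was read in members under 10 reads.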

Other observations

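The enzymes that cut matrix proteins and their inhibitors, written as a separate list, gave a further view of the matrix. Of 26 genes 16 were tested, 12 rose, 0 fell at the adjusted threshold and 4 did not pass, with a median log2 fold change of 0.51 from limma, against 25.3% and 22.8% of all tested genes that rose and fell. PLAUR, called higher, passed the filter only through MYCN KD, so these counts and the median are given as descriptions. The summed level of the list was 520 to 559 RPKM in Ctrl against 736 to 784 RPKM in MYCN KD. MMP15, a membrane-bound metalloproteinase, rose from 2.74 and 2.42 RPKM in Ctrl to 7.66 and 8.61 RPKM in MYCN KD (log2 fold change 1.35, adjusted p = 0.00422). TIMP2, an inhibitor of metalloproteinases that also takes part in the activation of MMP2, rose from 112.6 and 108.7 RPKM to 207 and 214 RPKM (log2 fold change 0.92, adjusted p = 0.00359). MMP2, the gelatinase that was the most abundant gene of the list in Ctrl, had 204.3 and 183.1 RPKM in Ctrl against 201.5 and 224.1 RPKM in MYCN KD, and its groups overlapped. MMP3 and MMP7 were listed at 0.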
